A study of Mus musculus with 25 samples.

Results

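Brown and beige adipocytes burn fuel to make heat, and 10 genes that mark these cells were followed through white adipose tissue of lean and obese mice. They were taken by symbol from the 54752 genes counted in each library, after the Ensembl IDs had been joined to mouse symbols, and all 10 were found. *Ucp1*, *Cidea*, *Dio2*, *Elovl3*, *Cox7a1*, *Cox8b*, *Ppargc1a*, *Prdm16*, *Ebf2* and *Otop1* make up the set, and their response to diet and to *Acod1* loss was compared over 6 groups of libraries.

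Thermogenic adipocytes are packed with mitochondria whose inner membrane carries an uncoupling protein, the product of *Ucp1*, which lets protons return without driving ATP synthesis and so releases heat. Sympathetic noradrenaline acting on β-adrenergic receptors and cyclic AMP switches the programme on, and the products of *Prdm16*, *Ebf2* and *Ppargc1a* help to establish and maintain it. In mice, inguinal white fat is known for its readiness to acquire beige adipocytes and epididymal fat for its reluctance to do so.

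RNA was sequenced from epididymal (eWAT) and inguinal (iWAT) white adipose tissue of male C57BL/6N mice, each library being labelled as a separate sample. Wild type mice on normal diet (ND; 4 eWAT and 3 iWAT libraries), wild type mice on high-fat diet (HFD; 5 and 5) and HFD-fed Acod1-/- mice (5 and 3) were compared. The knockout was constitutive, so that aconitate decarboxylase 1, the enzyme that makes itaconate, was missing from every cell type and not from adipocytes or macrophages alone. HFD started at 5 weeks of age and went on for 16 weeks, but the time label of the second and the third Acod1-/- iWAT library reads 17 and 18 weeks. ND-fed Acod1-/- mice were not analysed here, and the labels do not say whether an eWAT and an iWAT library with the same number came from the same mouse.

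Between 31.4 and 52.3 M reads were counted on genes in each library (median 42.1 M), and levels are given as CPM (counts per 1 M reads on genes) after TMM scaling of all 25 libraries. *Acod1* itself lay at or below 0.217 CPM everywhere and at or below 0.0764 CPM in the knockouts, too low for a check of the genotype labels. Adipocyte markers summed to between 31570 and 82930 CPM. Numbers in the file headers split the libraries into a first series of 14 and a second of 11. What sets the series apart is stated neither there nor in the labels. All ND-fed libraries belong to the second series, but only 1 library of each HFD-fed group in each depot. Some libraries stood apart. The 15 skeletal muscle markers summed to 12100 CPM in ND-fed wild type library 1, to 9.74 and 455 CPM in the other ND-fed iWAT libraries, to 38.6 to 707 CPM in HFD-fed iWAT and to 16.5 to 112 CPM in eWAT. The 6 lymph node and B cell markers summed to 513 to 764 CPM in ND-fed iWAT and to 1.93 to 67.7 CPM in HFD-fed iWAT. In Acod1-/- iWAT library 2 the 8 skin and mammary epithelium markers summed to 542 CPM, against 5.92 to 59.5 CPM in the rest of iWAT. The 6 epididymis markers summed to 7821 CPM in ND-fed eWAT library 2 and 1062 CPM in Acod1-/- eWAT library 5, against 0.207 to 244 CPM in the rest of eWAT, and Acod1-/- eWAT library 2 had the fewest reads and the highest share of mitochondrial reads (13.2%). Without ND-fed eWAT library 2 as many of the 10 genes passed for diet in eWAT as with it, 7, and values without the others are given beside the results.

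Promoter windows from RefSeq on GRCm38.p6, reaching from 250 bases before to 50 bases after the annotated start, were at hand for 7 of the 10 genes, and are printed for the 5 of these whose RNA was lower in iWAT of HFD-fed than of ND-fed wild type mice. Letters in capitals mark matches, on either strand, to the cyclic AMP response element TGACGTCA or its first 5 bases TGACG, to the nuclear receptor site AGGTCA alone or as its direct repeat spaced by 1 base, to the early B cell factor site CCCNNGGG, or to TATAAA, the letters of a TATA box. All are read 5′ to 3′ on the strand of the gene.
Ucp1 (chr8:83290098-83290397, + strand): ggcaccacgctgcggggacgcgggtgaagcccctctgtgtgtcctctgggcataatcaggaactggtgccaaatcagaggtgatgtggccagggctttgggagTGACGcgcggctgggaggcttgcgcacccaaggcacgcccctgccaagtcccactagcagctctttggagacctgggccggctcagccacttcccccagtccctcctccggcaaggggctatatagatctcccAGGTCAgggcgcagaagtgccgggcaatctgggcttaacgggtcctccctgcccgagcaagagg
Dio2 (chr12:90738989-90739288, - strand): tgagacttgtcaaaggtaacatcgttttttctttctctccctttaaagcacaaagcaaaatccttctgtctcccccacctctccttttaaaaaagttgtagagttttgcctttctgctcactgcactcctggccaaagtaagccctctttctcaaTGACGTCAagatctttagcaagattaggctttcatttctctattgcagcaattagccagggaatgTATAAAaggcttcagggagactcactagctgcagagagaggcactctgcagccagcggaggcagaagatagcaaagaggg
Cox7a1 (chr7:30183921-30184220, + strand): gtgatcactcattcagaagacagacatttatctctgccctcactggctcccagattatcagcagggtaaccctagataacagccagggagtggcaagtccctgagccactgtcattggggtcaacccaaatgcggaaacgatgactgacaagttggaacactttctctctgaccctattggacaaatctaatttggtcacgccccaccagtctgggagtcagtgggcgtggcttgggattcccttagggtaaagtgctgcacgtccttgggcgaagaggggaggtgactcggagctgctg
Cox8b (chr7:140900397-140900696, - strand): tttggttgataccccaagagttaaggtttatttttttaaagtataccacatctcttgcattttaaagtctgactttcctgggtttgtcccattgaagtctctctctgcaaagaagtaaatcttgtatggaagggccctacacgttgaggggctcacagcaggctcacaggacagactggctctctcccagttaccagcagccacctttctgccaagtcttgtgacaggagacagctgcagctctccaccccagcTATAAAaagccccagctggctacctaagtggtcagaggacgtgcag
Ppargc1a (chr5:51567676-51567975, - strand): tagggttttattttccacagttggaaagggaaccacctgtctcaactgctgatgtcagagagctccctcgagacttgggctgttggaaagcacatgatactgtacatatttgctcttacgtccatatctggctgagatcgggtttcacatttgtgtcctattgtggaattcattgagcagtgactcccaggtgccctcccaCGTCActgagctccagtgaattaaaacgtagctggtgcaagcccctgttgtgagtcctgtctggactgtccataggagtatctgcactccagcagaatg

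The full cyclic AMP response element stood once, in the *Dio2* window, where it began 95 bases before the start. It was found in 1.79% of the 32851 promoters of the table. The shorter TGACG, which every full element also contains, was present in the *Ucp1*, *Dio2* and *Ppargc1a* windows and in 20.8% of all promoters. AGGTCA occurred once in the *Ucp1* window, from 14 to 9 bases before the start, and in 16.3% of promoters, while TATAAA stood from 30 to 25 bases before the start of *Dio2*, from 5 to 10 bases after that of *Cox8b*, and in 13.6% of promoters. No window of the 7 held the spaced repeat (0.0396% of promoters) or the early B cell factor site (13.7%), and *Cox7a1*, *Prdm16* and *Otop1* had none of the 6 motifs. These matches describe letters only, and occupancy was not measured.

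**Figure D1:**
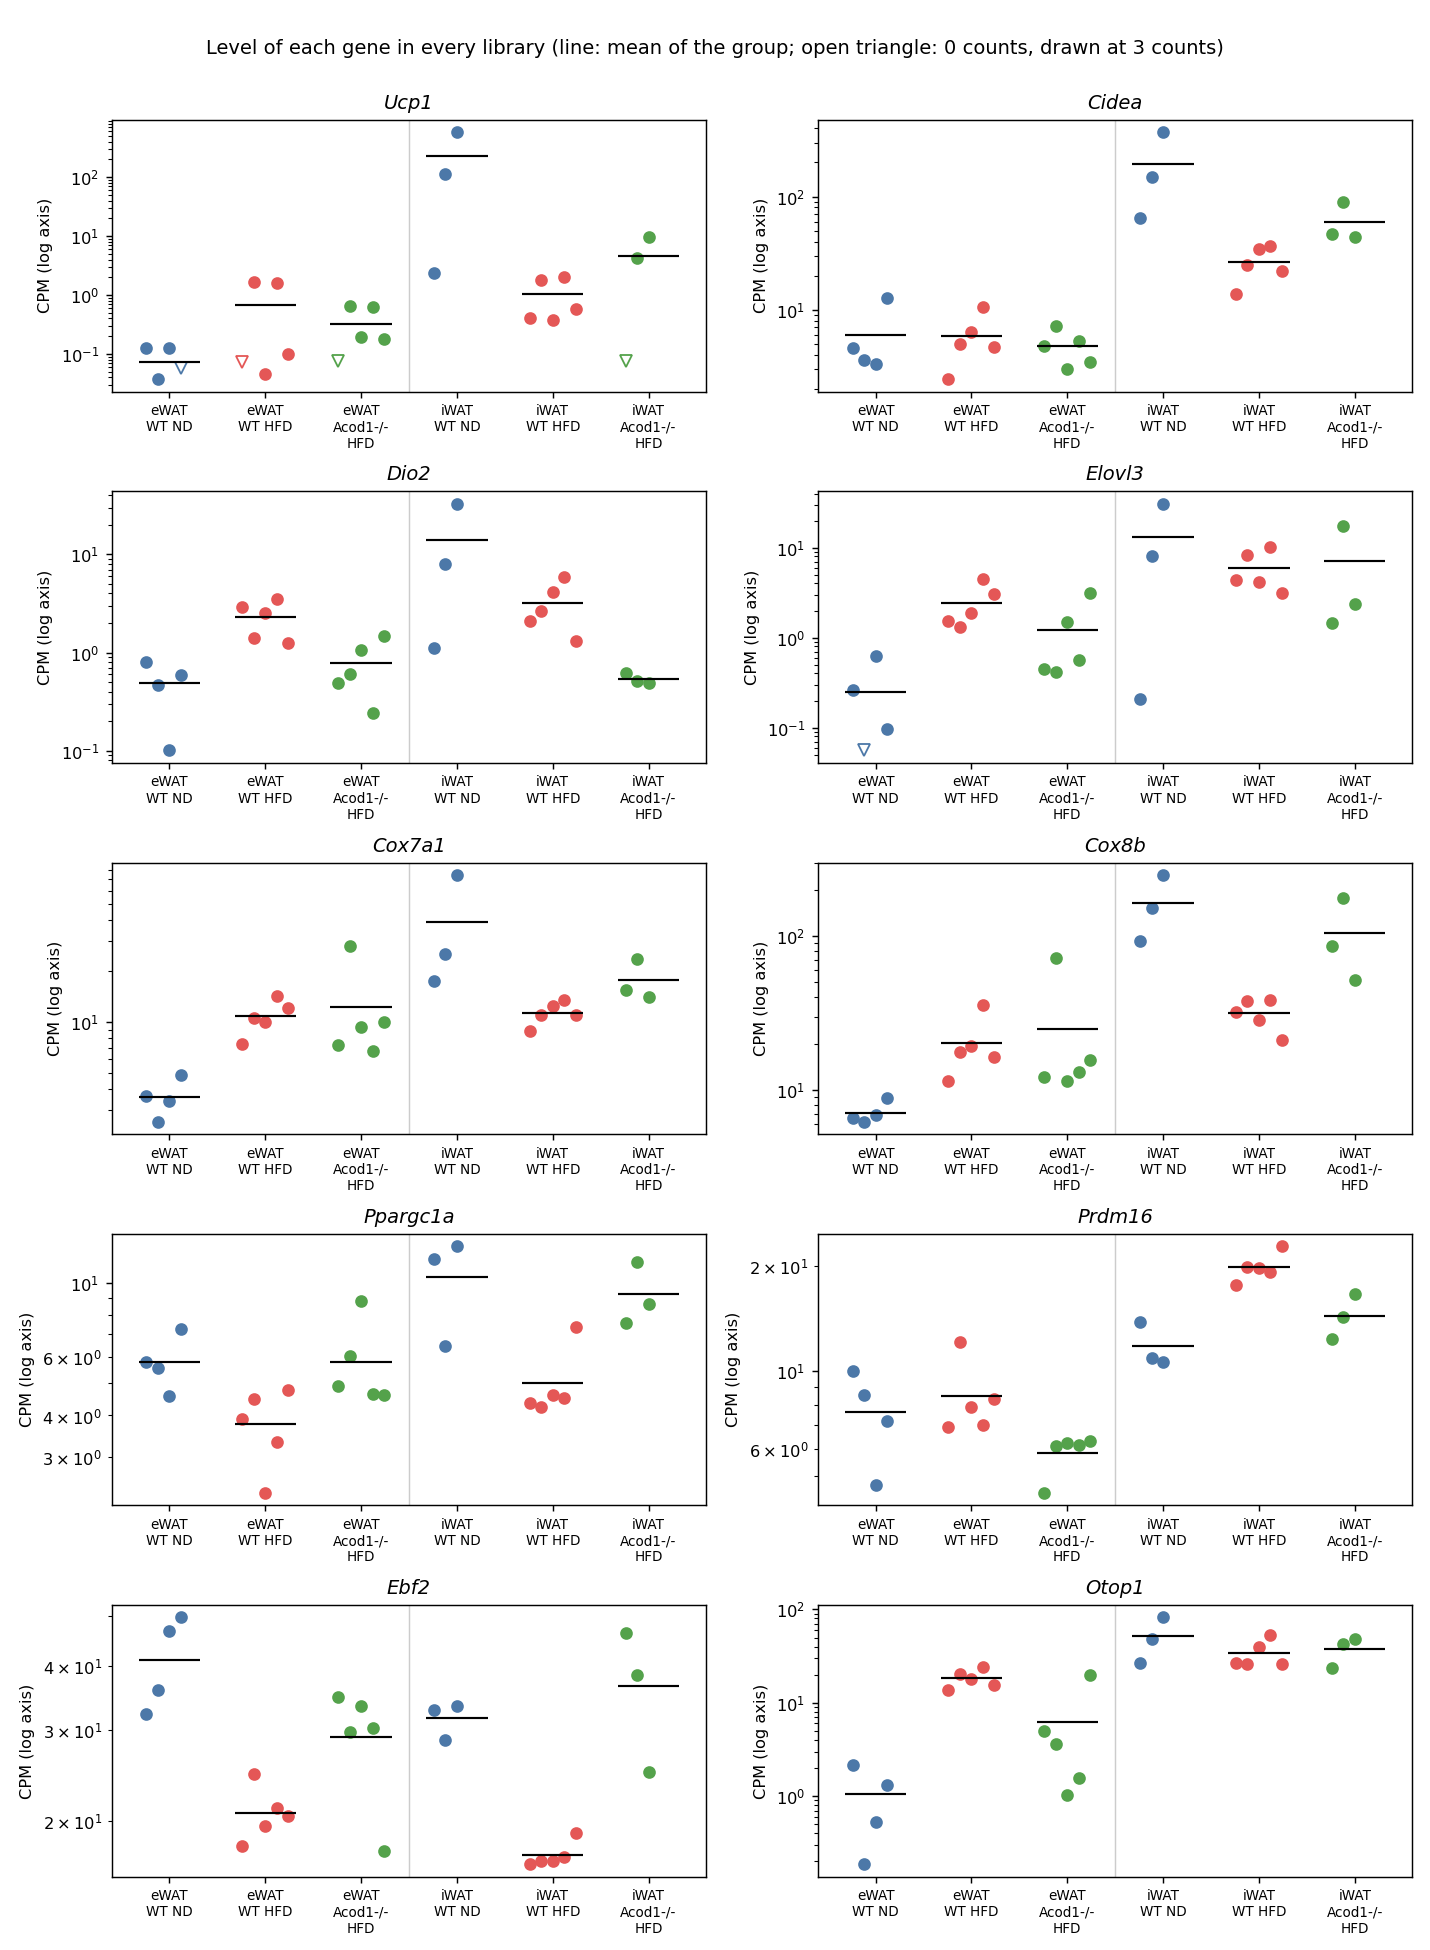
CPM (log axis) of the 10 genes in each of the 25 libraries, with the group mean as a line and libraries without a read drawn as open triangles at the level of 3 counts. ND-fed iWAT libraries (blue, right of each panel) are the highest of all groups for *Ucp1* and *Cidea* on average but span 2.37 to 577 CPM for *Ucp1*, and HFD-fed wild type libraries (red) lie above ND-fed ones in eWAT for *Otop1*, *Cox7a1* and *Cox8b*.

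Per kilobase of transcript, *Cox8b* was the most abundant of the 10 genes in all 6 groups. In ND-fed iWAT its mean level was 459 CPM per kb, followed by *Cidea* (167), *Ucp1* (141) and *Cox7a1* (73.0), whereas *Otop1*, *Elovl3*, *Ebf2*, *Dio2*, *Ppargc1a* and *Prdm16* came to between 1.26 and 15.2. The place of *Ucp1* in that order was uncertain, because its 3 libraries ran from 1.45 to 353 CPM per kb, and *Cidea* (55.6 to 317) also overlapped *Cox8b* (258 to 695). In ND-fed eWAT, *Cox8b* (19.8), *Cox7a1* (6.74), *Ebf2* (5.95) and *Cidea* (5.18) led, the last 3 with overlapping libraries, and *Ucp1* was the lowest at 0.0437 CPM per kb. By these levels the ND-fed eWAT libraries carried hardly any *Ucp1* RNA, with 14 reads over 4 libraries against 31573 over the 3 ND-fed iWAT libraries.

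To see how HFD altered the set in inguinal fat, HFD-fed and ND-fed wild type libraries were compared. Of the 10 genes, 7 fell and 1, *Prdm16*, rose at an adjusted p under 0.1 in edgeR's quasi-likelihood test, while *Elovl3* and *Otop1* did not pass. Among all 14801 genes tested, 50.1% passed, 24.2% with lower and 25.9% with higher levels on HFD. The groups did not overlap for 6 of the 10 genes, against 47.2% of all genes. In whole tissue, fewer cells of a type and less RNA per cell cannot be told apart.

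*Ucp1* (ENSMUSG00000031710), the uncoupling protein itself, stood at 2.37, 113 and 577 CPM in ND-fed iWAT and at 0.399, 1.80, 0.378, 2.06 and 0.587 CPM in HFD-fed wild type iWAT. All 5 HFD-fed libraries were below the lowest ND-fed library, which was the one rich in muscle RNA, and the ND-fed libraries differed among themselves by 244-fold. The log2 fold change was -7.79 (SE 1.53, adjusted p = 0.00237, edgeR). It was -8.37 without library 1 and -5.79 without library 3, and passed the test both times (adjusted p = 0.000799 and 0.0120).

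*Cidea* (ENSMUSG00000024526), a lipid droplet protein of brown and beige adipocytes, was at 64.7, 148 and 369 CPM on ND and at 13.9, 24.9, 34.3, 36.6 and 22.1 CPM on HFD. The groups were apart, and the log2 fold change was -2.87 (SE 0.49, adjusted p = 0.00110, edgeR), or -3.29 without library 1. *Elovl3* (ENSMUSG00000038754), an elongase of very long fatty acids that is induced by cold in brown fat, was at 0.209, 8.09 and 30.9 CPM on ND and at 4.34, 8.25, 4.13, 10.1 and 3.16 CPM on HFD. Its HFD-fed libraries lay inside the ND-fed range and the log2 fold change of -1.12 (95% interval -3.18 to 0.94, adjusted p = 0.415, edgeR) became 0.52 without ND-fed library 3 and -1.70 without library 1.

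*Dio2* (ENSMUSG00000007682), the deiodinase that turns thyroxine into the active hormone inside brown adipocytes, was at 1.11, 7.90 and 32.9 CPM on ND and at 2.09, 2.64, 4.16, 5.90 and 1.29 CPM on HFD. Its lowest ND-fed library, the one rich in muscle RNA, was below all HFD-fed libraries, and the fall of 2.11 on the log2 scale (SE 0.76, adjusted p = 0.0454, edgeR) rested on library 3, without which it was -0.49 (adjusted p = 0.606). It was -2.66 (adjusted p = 0.00516) without library 1. With the series as a term the log2 fold change was -2.91 (adjusted p = 0.107).

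*Cox7a1* (ENSMUSG00000074218) and *Cox8b* (ENSMUSG00000025488) encode the subunits of cytochrome c oxidase that brown fat shares with heart and skeletal muscle. *Cox7a1* was at 17.5, 25.3 and 74.3 CPM on ND and at 8.87, 11.04, 12.4, 13.5 and 10.99 CPM on HFD, with no overlap. The log2 fold change was -1.77 (SE 0.38, adjusted p = 0.00402, edgeR), and -0.92 (adjusted p = 0.0143) without ND-fed library 3. *Cox8b* was at 92.9, 152 and 250 CPM on ND and at 32.1, 38.1, 28.7, 38.5 and 21.2 CPM on HFD, again with no overlap and with a log2 fold change of -2.37 (SE 0.38, adjusted p = 0.000834, edgeR). The library with 12100 CPM of muscle markers was the lowest of the ND-fed libraries for each, and without it the log2 fold changes were -2.13 for *Cox7a1* and -2.66 for *Cox8b*.

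Among the regulators, *Ppargc1a* (ENSMUSG00000029167), a coactivator that drives mitochondrial biogenesis, was at 11.8, 6.45 and 12.9 CPM on ND and at 4.36, 4.24, 4.61, 4.53 and 7.35 CPM on HFD. A single HFD-fed library, the only one from the second series, reached into the ND range. The log2 fold change was -1.03 (SE 0.27, adjusted p = 0.0119, edgeR), and -0.74 (adjusted p = 0.144) with the series as a term. *Ebf2* (ENSMUSG00000022053), a transcription factor that marks brown and beige precursors, was at 32.9, 28.8 and 33.4 CPM on ND and within 16.4 to 18.9 CPM in all 5 HFD-fed libraries. Its log2 fold change of -0.87 (SE 0.16, adjusted p = 0.00183, edgeR) rested on libraries that lay close together in both groups. Without library 1 the log2 fold changes were -0.93 for *Ppargc1a* (adjusted p = 0.0429) and -0.84 for *Ebf2* (0.00746).

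*Prdm16* (ENSMUSG00000039410), the coregulator that steers precursors to the brown and beige fate, went the other way. It was at 13.8, 10.9 and 10.6 CPM on ND and at 17.6, 19.8, 19.8, 19.3 and 22.8 CPM on HFD. Every HFD-fed library exceeded every ND-fed one, and the log2 fold change was 0.78 (SE 0.15, adjusted p = 0.00237, edgeR), or 0.90 without ND-fed library 1. *Otop1* (ENSMUSG00000051596), a proton channel gene expressed in brown fat, was at 26.4, 48.1 and 82.0 CPM on ND and at 26.5, 26.3, 39.5, 53.8 and 26.2 CPM on HFD, with overlapping groups and a log2 fold change of -0.59 (95% interval -1.31 to 0.14, adjusted p = 0.225, edgeR). Without the library rich in muscle RNA this became -0.91 with an adjusted p of 0.0667, and 9 of the 10 genes then passed, and without HFD-fed library 4 it became -0.82 (adjusted p = 0.0956).

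A common ordering ran through the ND-fed iWAT libraries. Library 3 was the highest of the 3 for 9 of the 10 genes and library 1 the lowest for 7 (*Ucp1*, *Cidea*, *Dio2*, *Elovl3*, *Cox7a1*, *Cox8b* and *Otop1*), so that the same library set the top of nearly every gene. The second series holds all ND-fed libraries but only HFD-fed wild type library 5 of iWAT. That library was below the whole ND range for *Ucp1*, *Cidea*, *Cox7a1*, *Cox8b*, *Ebf2* and *Otop1*. It was above that range for *Prdm16* and inside it for *Dio2*, *Elovl3* and *Ppargc1a*. Of the muscle markers, 14 of 15 were lower on HFD in iWAT (none without library 1), as were 6 of 6 lymph node and B cell markers, while 7 of 7 endothelial, 7 of 10 macrophage and 6 of 7 progenitor markers tested were higher. Adipocyte markers were split, with 5 of 10 higher and 2 lower. The part of these cell types in the results was not tested, apart from the values without the muscle-rich library.

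**Figure D2:**
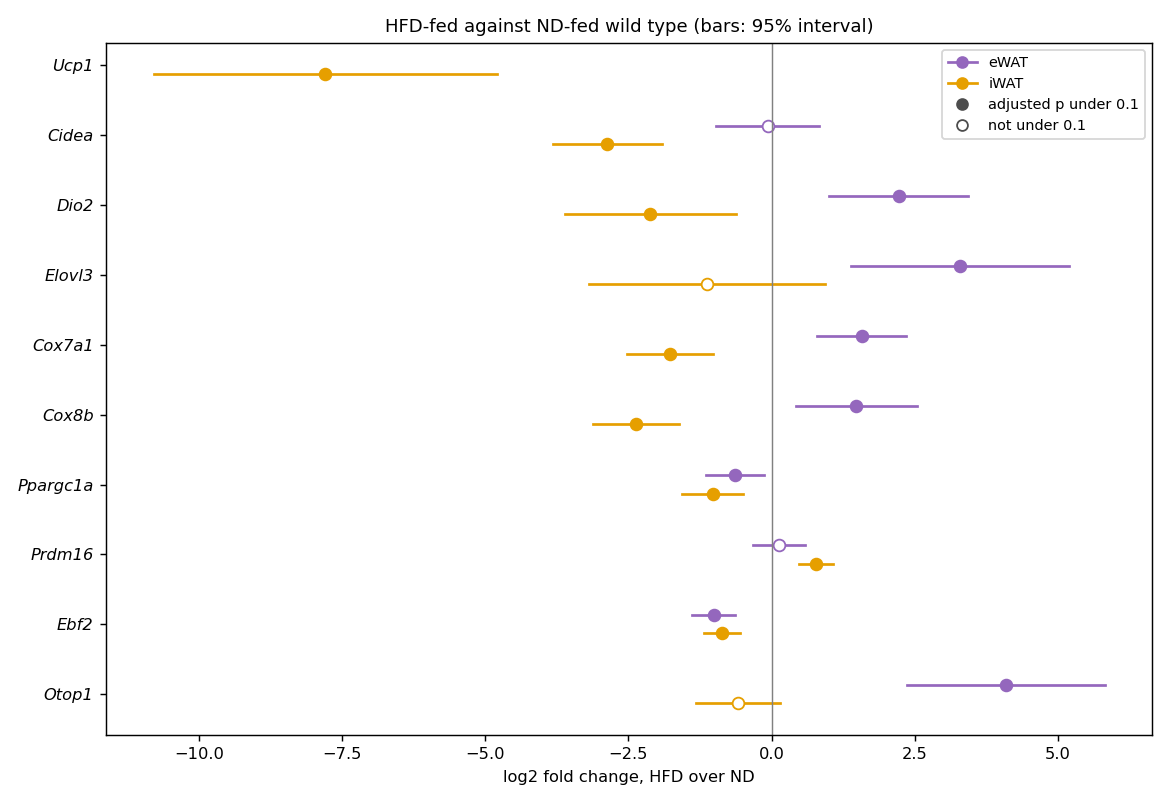
Log2 fold change, HFD over ND, of each gene in wild type eWAT (purple) and iWAT (orange), with 95% intervals and filled points where the adjusted p was under 0.1; *Ucp1* was too low in eWAT for the fit. *Cox7a1*, *Cox8b* and *Dio2* lie on opposite sides of 0 in the 2 depots, and *Ebf2* and *Ppargc1a* on the same side.

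In epididymal fat the same diet acted on a tissue with little thermogenic RNA. *Ucp1* averaged 0.373 CPM there before scaling and was left out of the fit across genes, which keeps genes of at least 1 CPM on average over the libraries of a depot. Of the 9 genes tested, 7 passed (background 51.8% of 14936 genes), but *Dio2* and *Elovl3* were above 1 CPM only on HFD, so that passing the filter and differing were not independent for them. Among the other 7 genes, *Otop1*, *Cox7a1* and *Cox8b* rose, *Ebf2* and *Ppargc1a* fell, and *Cidea* and *Prdm16* did not pass, against 24.8% of all genes with higher and 26.9% with lower levels on HFD. Among these 7 genes the groups did not overlap for 4, with 35.0% as the background.

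The largest log2 fold change was that of *Otop1*. It was at 2.17, 0.186, 0.526 and 1.32 CPM in ND-fed eWAT and at 13.7, 20.3, 17.9, 24.3 and 15.7 CPM in HFD-fed wild type eWAT. All HFD-fed libraries were at least 6 times above any ND-fed library, and the log2 fold change was 4.09 (SE 0.88, adjusted p = 0.00308, edgeR). *Elovl3* followed, from 0.265, 0, 0.627 and 0.0973 CPM on ND, the second library having no read (which allows up to 0.0557 CPM), to 1.52, 1.32, 1.86, 4.45 and 3.05 CPM on HFD. These groups were apart too, although at low levels (log2 fold change 3.29, SE 0.97, adjusted p = 0.0154, edgeR).

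*Dio2* was at 0.795, 0.464, 0.1003 and 0.584 CPM on ND and at 2.89, 1.41, 2.55, 3.50 and 1.25 CPM on HFD. The groups were apart and the log2 fold change was 2.22 (SE 0.62, adjusted p = 0.0118, edgeR). *Cidea* was at 4.59, 3.56, 3.31 and 12.7 CPM on ND and at 2.43, 4.97, 6.38, 10.6 and 4.70 CPM on HFD. It did not pass, its groups overlapped, and its log2 fold change of -0.07 (95% interval -0.97 to 0.83) became 0.59 without ND-fed library 4, the one that held 12.7 CPM.

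The oxidase subunits were higher on HFD in every library. *Cox7a1* was at 3.64, 2.56, 3.38 and 4.84 CPM on ND and at 7.42, 10.6, 9.97, 14.3 and 12.1 CPM on HFD (log2 fold change 1.57, SE 0.40, adjusted p = 0.00734, edgeR). *Cox8b* was at 6.52, 6.198, 6.87 and 8.87 CPM on ND and at 11.4, 17.6, 19.2, 35.8 and 16.3 CPM on HFD (1.48, SE 0.54, adjusted p = 0.0394, edgeR). For *Cox8b* the call was narrow, with a log2 fold change of 1.16 (adjusted p = 0.104) without HFD-fed library 4. With the series as a term it was 1.02 (adjusted p = 0.288), whereas *Cox7a1* kept an adjusted p of 0.0479 with that term. Of the muscle markers, 4 of 10 tested were higher on HFD and none lower. Their sums were 16.5 to 43.6 CPM on ND and 43.99 to 71.1 CPM on HFD. The 4 were *Pvalb* (0.0584 to 1.29 CPM on ND, 15.55 to 30.98 CPM on HFD), *Casq1*, *Tnni2* and *Myh4*. Log2 fold changes of *Acta1* (-0.27), *Actn3* (-0.57), *Mb* (-1.14), *Mylpf* (-0.02), *Tnnc2* (0.34) and *Tnnt3* (1.35) did not pass. *Pvalb* and *Tnni2* passed the filter only through HFD, so that passing and differing were not independent. *Myh4*, at 0 on ND and at most 1.35 CPM in HFD-fed wild type, passed it through the knockouts. Its call was lost without ND-fed library 2 (adjusted p = 0.140, edgeR). The part of muscle RNA in the result was not tested.

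*Ebf2* was at 32.3, 35.9, 46.9 and 49.8 CPM on ND and at 17.8, 24.6, 19.5, 21.2 and 20.4 CPM on HFD. Its groups were apart, and the log2 fold change of -1.01 (SE 0.19, adjusted p = 0.00150, edgeR) was close in size to the fall in iWAT. *Ppargc1a* was at 5.77, 5.57, 4.56 and 7.26 CPM on ND and at 3.90, 4.48, 2.34, 3.32 and 4.76 CPM on HFD, with a small overlap and a log2 fold change of -0.64 (SE 0.26, adjusted p = 0.0622, edgeR). That call was lost without ND-fed library 4 (adjusted p = 0.172), HFD-fed library 3 (0.130) or HFD-fed library 4 (0.116), and once the series was added to the model (0.257). *Prdm16*, at 4.71 to 10.03 CPM on ND and 6.93 to 12.2 CPM on HFD, had a log2 fold change of 0.13 (95% interval -0.32 to 0.58) that did not pass.

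*Ucp1* in eWAT was at 0.124, 0.0371, 0.125 and 0 CPM on ND and at 0, 1.66, 0.0459, 1.60 and 0.101 CPM on HFD. Of the 5 HFD-fed libraries 2 exceeded the ND range, and the difference of 0.609 CPM between the means had a two-sided exact permutation p of 0.413 (n = 5 and 4). The libraries without a read allow up to 0.0584 CPM on ND and 0.0722 CPM on HFD. In the second series alone, HFD-fed wild type library 5 of eWAT was above the ND range for *Otop1*, *Elovl3*, *Dio2*, *Cox7a1* and *Cox8b*. It was below that range for *Ebf2*. Markers that moved with diet in eWAT were those of macrophages (9 of 10 higher, 1 lower), progenitors (6 of 7 tested higher), adipocytes (1 higher and 5 lower of 10), endothelium (5 of 7 lower), skin and mammary epithelium (6 of 7 tested lower), mesothelium (3 of 4 lower) and epididymis (2 of 6 lower), and their part in the values was not tested.

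Whether diet acted differently in the depots was asked of the difference between the log2 fold changes, in a fit of all 25 libraries. In 7 of the 10 genes the change in iWAT was lower than that in eWAT, and in none was it higher, with 28.7% of 15609 genes passing this test (14.2% lower, 14.5% higher). The differences were -11.01 for *Ucp1* (SE 2.09), -4.71 for *Otop1* (SE 0.95), -4.45 for *Elovl3* (SE 1.46), -4.36 for *Dio2* (SE 1.01), -3.88 for *Cox8b* (SE 0.72), -3.37 for *Cox7a1* (SE 0.58) and -2.82 for *Cidea* (SE 0.70), with adjusted p-values from 0.000321 to 0.0338 in edgeR. The value for *Ucp1* leans on 14 reads in ND-fed eWAT. *Ucp1* was kept in this fit only through iWAT (67.3 CPM unscaled, against 0.373 in eWAT), so that passing the filter and differing were not independent for it. All 7 passed without the muscle-rich iWAT library, and without ND-fed iWAT library 3 all but *Elovl3* (-2.79, adjusted p = 0.195) did.

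For the 3 transcriptional regulators the difference did not pass. It was 0.11 for *Ebf2* (95% interval -0.41 to 0.63), -0.42 for *Ppargc1a* (-1.17 to 0.32) and 0.61 for *Prdm16* (0.05 to 1.16), with adjusted p-values of 0.820, 0.461 and 0.132 in edgeR. *Ebf2* and *Ppargc1a* thus fell in both depots by amounts whose difference was not detectable. For *Prdm16* the difference passed without the muscle-rich library (0.74, adjusted p = 0.0881), without ND-fed eWAT library 3 (0.78, adjusted p = 0.0374) or without HFD-fed wild type eWAT library 2 (0.77, adjusted p = 0.0393).

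Within each library, a muscle- and brown-fat-type subunit of cytochrome c oxidase can be set against a widespread counterpart whatever the scaling. Such shares use the same *Cox7a1* and *Cox8b* counts as the tests above, and are no independent check of them. *Cox7a2* and *Cox8a*, the widespread isoforms, were compared first: HFD gave log2 fold changes of 0.18 and 0.21 in iWAT, neither past the test, and of 0.47 (adjusted p = 0.0972) and 0.25 (0.417) in eWAT, in edgeR. Per length, *Cox8b* made up 40.4% ± 5.80 (SD, n = 3) of *Cox8b* plus *Cox8a* in ND-fed iWAT and 10.7% ± 1.71 (n = 5) in HFD-fed wild type iWAT. In eWAT the same share was 3.43% ± 0.489 (n = 4) on ND and 7.70% ± 2.79 (n = 5) on HFD.

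*Cox7a1* as a share of *Cox7a1* plus *Cox7a2* went from 25.6% ± 10.51 on ND to 9.28% ± 0.874 on HFD in iWAT, and from 4.66% ± 0.991 to 9.66% ± 1.45 in eWAT (same n). For both shares and both depots the diet groups did not overlap, and the two-sided exact permutation p was the smallest these group sizes allow, 0.0159 in eWAT and 0.0357 in iWAT (0.0612 after adjustment over 12 tests). *Ucp1* as a share of *Ucp1*, *Ucp2* and *Ucp3* was 51.3% ± 43.4 in ND-fed and 1.41% ± 1.08 in HFD-fed wild type iWAT, where the lowest ND-fed library was at 3.37% (exact permutation p = 0.0357, adjusted 0.0612). With any 1 of the ND-fed iWAT libraries left out, only 2 of the 12 tests had an adjusted p under 0.1, since fewer libraries raise the smallest p possible.

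**Figure D3:**
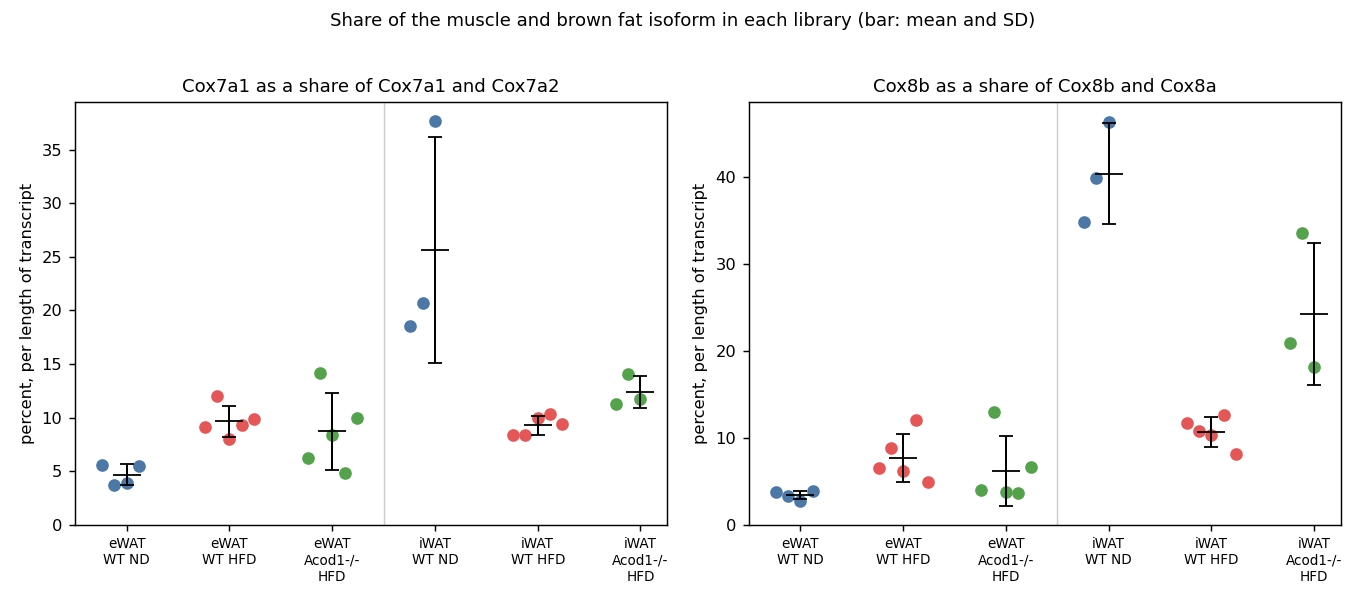
Percent of *Cox7a1* plus *Cox7a2* that was *Cox7a1* (left) and of *Cox8b* plus *Cox8a* that was *Cox8b* (right), after division of counts by transcript length, in each library with mean and SD. The *Cox8b* share was 34.8% to 46.4% in ND-fed and 8.09% to 12.7% in HFD-fed wild type iWAT, was 18.2% to 33.5% in HFD-fed Acod1-/- iWAT, and was at most 13.0% in any eWAT library.

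*Ucp2*, an uncoupling protein homologue abundant in leukocytes, rose on HFD in eWAT from 164 to 233 CPM to 477 to 963 CPM (log2 fold change 1.67, SE 0.32, adjusted p = 0.00149, edgeR) and did not pass in iWAT (0.19, SE 0.22). *Ucp3*, the homologue of skeletal muscle, passed in neither depot (0.42, SE 0.31, and -0.19, SE 0.27). *Cidec*, the lipid droplet relative of *Cidea* that white adipocytes make, rose on HFD in iWAT from 1657 to 2295 CPM to 2909 to 3791 CPM (0.83, SE 0.23, adjusted p = 0.0154, edgeR), against the fall of *Cidea*, and did not pass in eWAT (-0.14, SE 0.22). *Ebf1*, the relative of *Ebf2*, passed in neither (-0.29, SE 0.25, in eWAT and 0.20, SE 0.23, in iWAT).

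Loss of *Acod1* on HFD was then examined against HFD-fed wild type mice, the same libraries that served the diet comparison, so the 2 sets of changes are not independent. In eWAT, *Dio2* was lower and *Ebf2* higher in Acod1-/- mice at an adjusted p under 0.1 in edgeR, 2 of the 9 genes tested, with 19.9% of 14936 genes passing (9.13% higher, 10.8% lower). *Dio2* averaged over 1 CPM only in HFD-fed wild type eWAT (2.31 CPM unscaled, against 0.512 on ND and 0.744 in the knockouts), so that its passing the filter and its difference were not independent, and *Ebf2* was 1 of the other 8. *Dio2* was at 0.494, 0.611, 1.06, 0.242 and 1.47 CPM in the knockouts, where only library 5 reached into the wild type range of 1.25 to 3.50 CPM (log2 fold change -1.56, SE 0.56, adjusted p = 0.0827). *Ebf2* was at 34.8, 29.8, 33.4, 30.3 and 17.4 CPM, with 4 libraries above the wild type range of 17.8 to 24.6 CPM and library 5 below it (0.51, SE 0.18, adjusted p = 0.0799). Both calls were lost without wild type library 1, 3 or 4 or without Acod1-/- library 1, 2, 3 or 4 (adjusted p from 0.115 to 0.177), and that of *Ebf2* also without wild type library 5 (0.107).

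Acod1-/- library 5 of eWAT, the only one of its group from the second series, stood apart for several genes. Its *Otop1* was at 19.9 CPM, within the wild type range of 13.7 to 24.3 CPM, while the other 4 knockouts were at 5.02, 3.63, 1.03 and 1.56 CPM. With all libraries *Otop1* did not pass (log2 fold change -1.55, SE 0.72, adjusted p = 0.171), and without library 5 it did (-2.70, adjusted p = 0.00911), as did *Dio2*, *Ebf2* and *Ppargc1a*. With the series as a term *Otop1* passed as well (-2.21, adjusted p = 0.0584). Epididymis markers summed to 1062 CPM in library 5 and to 1.45 to 244 CPM in the other knockouts, and 2 of the 6, *Rnase10* and *Lcn8*, were higher in the knockouts, but their part was not tested. Macrophage markers, 9 of 10 of which were lower in the knockouts, also took a wide range in this group, from 349 to 1296 CPM in sum against 1226 to 4118 CPM in wild type, and 5 of 10 adipocyte markers were higher and 3 of 7 progenitor markers tested lower, but their part in these values was not tested.

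Library 2 of the Acod1-/- eWAT group was the outlier for the oxidase subunits. *Cox8b* was at 72.0 CPM there and at 12.2, 11.4, 13.1 and 15.7 CPM in the other 4, and *Cox7a1* at 28.1 CPM against 7.31, 9.35, 6.75 and 9.96 CPM. The log2 fold changes of 0.32 (SE 0.49) for *Cox8b* and 0.19 (SE 0.36) for *Cox7a1* did not pass and turned to -0.60 and -0.37 without that library. It also had the highest sum of muscle markers of any eWAT library, 112 CPM, the fewest reads of all libraries (31.4 M) and a mitochondrial share of 13.2%, against 5.09% to 7.69% in the other 4, and the part of these in the result was not tested. *Ppargc1a* was at 4.92, 6.03, 8.80, 4.63 and 4.62 CPM in the knockouts (0.64, SE 0.25, adjusted p = 0.106, and 0.0800 without wild type library 5) and *Prdm16* at 4.47, 6.11, 6.21, 6.13 and 6.29 CPM, below all 5 wild type libraries (-0.52, SE 0.22, adjusted p = 0.133), the only 1 of the 9 genes whose groups were apart, against 7.01% of all genes. Neither *Cidea* (-0.28, 95% interval -1.14 to 0.57), *Elovl3* (-0.98, -2.56 to 0.59) nor *Ucp1* (0.327 against 0.681 CPM, two-sided exact permutation p = 0.429, n = 5 and 5) passed.

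**Figure D4:**
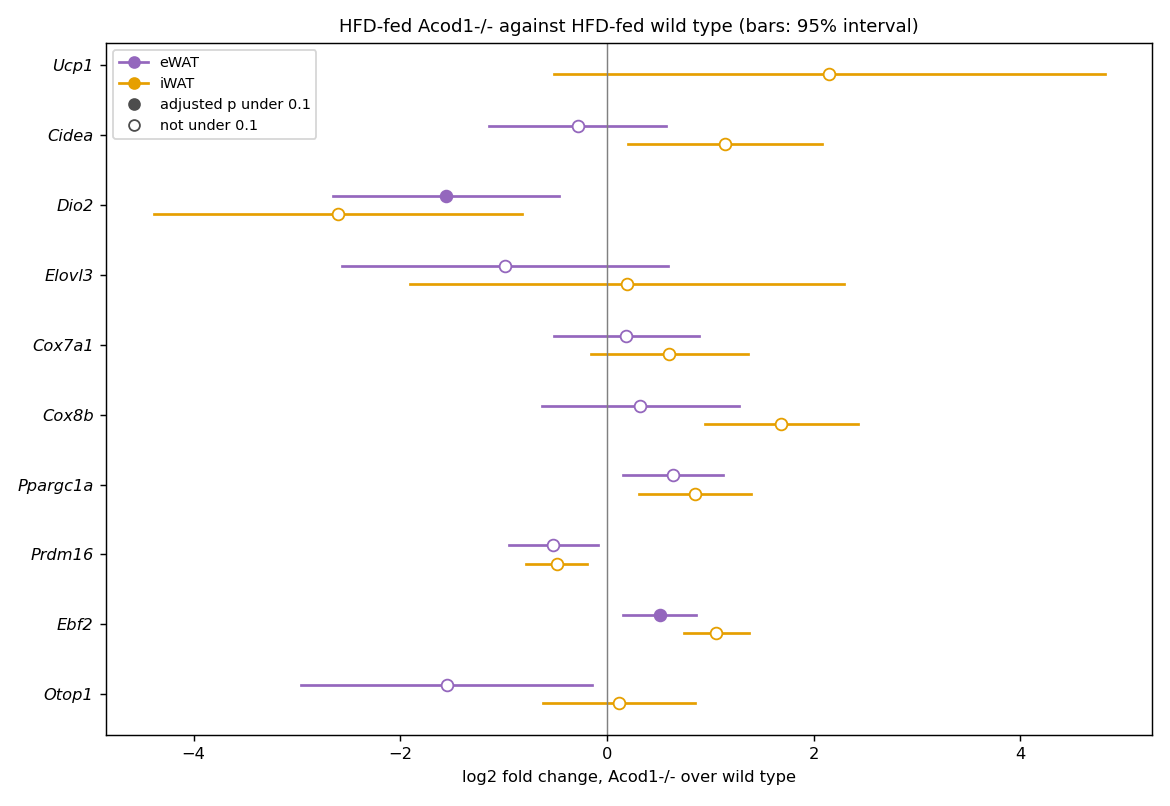
Log2 fold change, HFD-fed Acod1-/- over HFD-fed wild type, of each gene in eWAT (purple) and iWAT (orange), with 95% intervals and filled points where the adjusted p was under 0.1. Filled are only *Dio2* (-1.56) and *Ebf2* (0.51) in eWAT; in iWAT the intervals of *Ebf2*, *Cox8b*, *Cidea*, *Ppargc1a*, *Dio2* and *Prdm16* lie away from 0 without a filled point.

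In iWAT, 3 Acod1-/- libraries faced 5 wild type libraries, and none of the 10 genes passed the adjusted test, nor did any of the 14801 genes (0.0%) in edgeR. Unadjusted, 2468 genes and 6 of the 10 had a p under 0.05, and DESeq2's Wald test, an alternative, called 1072 genes and 5 of the 10. The groups did not overlap for 7 of the 10 genes, against 8.20% of all genes tested. The values are therefore given as a description.

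*Ebf2* was at 46.5, 38.4 and 24.9 CPM in Acod1-/- iWAT, all above the wild type range of 16.4 to 18.9 CPM and around the ND-fed level (log2 fold change 1.06, SE 0.16, adjusted p = 0.132, unadjusted p = 3.51e-05, edgeR). *Cox8b* was at 85.9, 177 and 51.6 CPM, all above the wild type range of 21.2 to 38.5 CPM (1.69, SE 0.38, adjusted p = 0.137). *Cidea* was at 46.6, 88.8 and 43.9 CPM, above 13.9 to 36.6 CPM (1.14, SE 0.48, adjusted p = 0.264). *Ppargc1a* at 7.56, 11.6 and 8.66 CPM and *Cox7a1* at 15.5, 23.5 and 14.1 CPM were likewise above every wild type library, by 0.85 (SE 0.28) and 0.60 (SE 0.39) on the log2 scale. Library 2 was the highest of the 3 knockouts for *Cidea*, *Elovl3*, *Cox7a1*, *Cox8b* and *Ppargc1a*. Its skin and mammary epithelium markers summed to 542 CPM, against 9.51 and 9.49 CPM in the other 2, with none of 7 tested passing for genotype and 3 at an unadjusted p under 0.05, and their part was not tested. Without it the log2 fold changes were 0.78 for *Cidea*, -1.65 for *Elovl3*, 0.38 for *Cox7a1*, 1.115 for *Cox8b* and 0.69 for *Ppargc1a*.

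In the other direction, *Dio2* was at 0.613, 0.510 and 0.488 CPM in Acod1-/- iWAT, below the wild type range of 1.29 to 5.90 CPM (log2 fold change -2.60, SE 0.91, adjusted p = 0.198, edgeR). *Prdm16* was at 12.3, 14.3 and 16.6 CPM, below 17.6 to 22.8 CPM (-0.49, SE 0.15, adjusted p = 0.164). *Ucp1* was at 0, 4.21 and 9.80 CPM, library 1 having no read (which allows up to 0.0767 CPM) and the other 2 lying above the wild type maximum of 2.06 CPM (2.15, 95% interval -0.51 to 4.82). *Elovl3*, at 1.46, 17.5 and 2.37 CPM, and *Otop1*, at 23.8, 42.2 and 48.3 CPM, overlapped with wild type.

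The iWAT result depended on the third Acod1-/- library, labelled 18 weeks and the only knockout of iWAT from the second series. Without it *Ebf2* (1.31, adjusted p = 0.00438), *Cox8b* (2.05, 0.0163), *Prdm16* (-0.57, 0.0544) and *Ppargc1a* (0.93, 0.0900) passed in edgeR. In the HFD-fed libraries of the first series alone, a comparison chosen after the values had been seen, *Ebf2*, *Cox8b*, *Dio2*, *Ppargc1a*, *Prdm16* and *Cidea* passed (adjusted p from 0.0138 to 0.0946), 6 of the 10. Without Acod1-/- library 1 or 2 none did, and without wild type library 5 *Ebf2* alone did (1.102, 0.0446). None of the 10 macrophage markers passed in iWAT, although 8 had an unadjusted p under 0.05, and muscle markers summed to 137 to 707 CPM in the knockouts and 38.6 to 572 CPM in wild type, with none of 15 passing. The part of other cells was not tested.

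In Acod1-/- iWAT the *Cox8b* share was 24.2% ± 8.19 (n = 3) against 10.7% ± 1.71 (n = 5), and the *Cox7a1* share was 12.4% ± 1.51 against 9.28% ± 0.874, both without overlap and both with a two-sided exact permutation p of 0.0357, the smallest that 3 against 5 allow (adjusted 0.0612). In eWAT neither share differed beyond the spread (exact permutation p = 0.508 and 0.611, n = 5 and 5). Whether the effect of *Acod1* loss differed between the depots was not resolved, as none of the 10 genes and 1 of 15609 genes (0.00641%) passed that test in edgeR, with 3 of the 10 and 1607 genes at an unadjusted p under 0.05 and 115 genes passing in DESeq2's Wald test. The largest differences were 3.29 (SE 1.80) for *Ucp1*, 1.70 (SE 0.88) for *Otop1*, 1.48 (SE 0.67) for *Cidea* and 1.42 (SE 0.68) for *Cox8b*, all towards iWAT.

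Set side by side, the depots differed most on ND. There 9 of the 10 genes were higher in iWAT at an adjusted p under 0.1 in edgeR, *Ebf2* alone not passing, with 32.4% of 15609 genes passing (14.1% higher and 18.3% lower in iWAT). The groups did not overlap for 7 of the 10, against 36.0% of all genes. In the depot tests *Ucp1* was kept only through iWAT (67.3 CPM unscaled, against 0.373 in eWAT). Passing the filter and differing were therefore not independent for *Ucp1*, which is counted among the 9 and the 7. Log2 differences were 11.63 for *Ucp1* (SE 1.85), between 3.44 and 5.74 for *Cox7a1*, *Cox8b*, *Dio2*, *Cidea*, *Otop1* and *Elovl3*, and 0.84 and 0.62 for *Ppargc1a* and *Prdm16*. Without the muscle-rich library 7 of the 10 passed, *Ppargc1a* (0.75, adjusted p = 0.108) and *Prdm16* (0.51, 0.135) being lost. *Ppargc1a* was also lost without ND-fed iWAT library 3 (0.174) and *Prdm16* without ND-fed eWAT library 3 (0.114).

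In HFD-fed wild type mice only *Cidea* (log2 difference 2.18, SE 0.46, adjusted p = 0.00392) and *Prdm16* (1.23, SE 0.18, adjusted p = 0.000249) were higher in iWAT, 2 of 10 with 18.3% of genes passing in edgeR (7.02% higher, 11.3% lower), and the groups were apart for 3 of 10, against 11.8%. *Cox7a1* differed by 0.06 (95% interval -0.65 to 0.78), at 7.42 to 14.3 CPM in eWAT and 8.87 to 13.5 CPM in iWAT. In HFD-fed Acod1-/- mice 4 of 10 were higher in iWAT, where 4.22% of genes passed (1.97% higher, 2.25% lower) and groups were apart for 3 of 10, against 6.14% of all genes: *Cidea* (3.67, SE 0.52), *Otop1* (2.60, SE 0.67), *Cox8b* (2.08, SE 0.51) and *Prdm16* (1.30, SE 0.20). *Cox8b* (adjusted p = 0.285) and *Otop1* (0.145) were lost without Acod1-/- iWAT library 2, and *Ucp1* passed without Acod1-/- iWAT library 1 (4.50, 0.0802). The 3 comparisons use different libraries, and whether the depot gap itself changed with diet is the test of the diet difference given above.

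**Figure D5:**
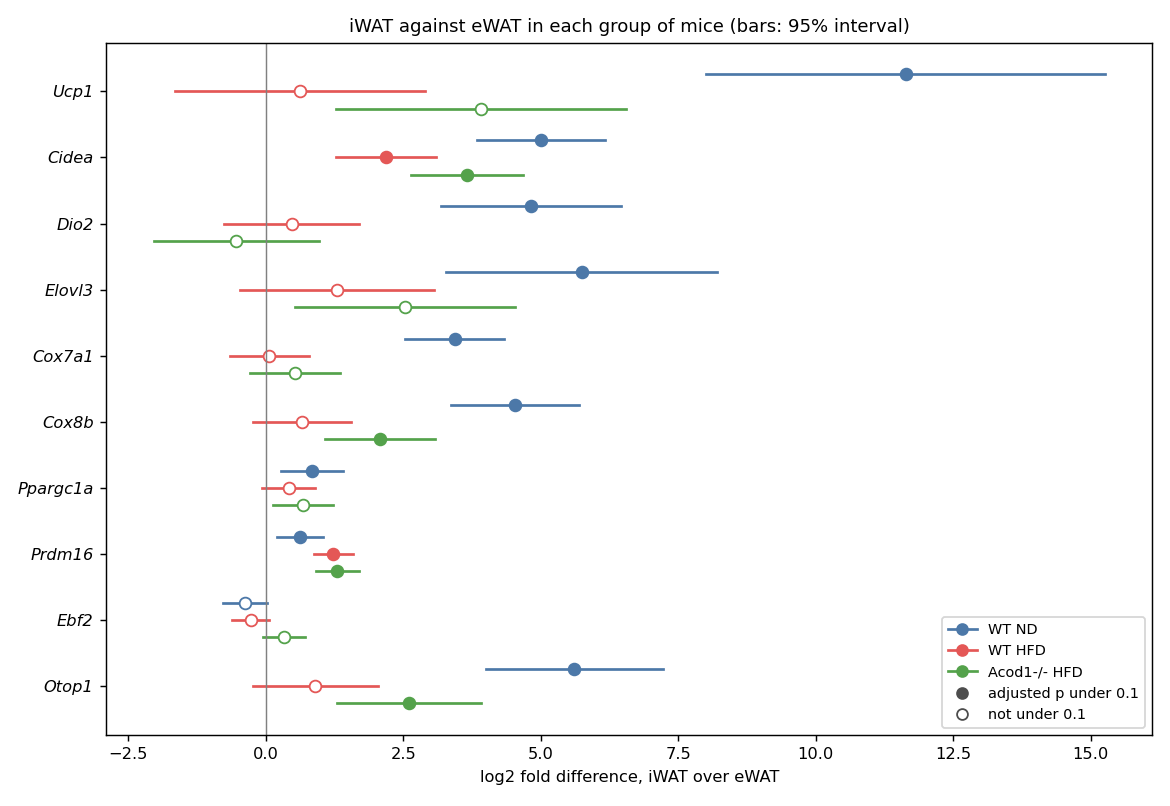
Log2 difference, iWAT over eWAT, of each gene in ND-fed wild type (blue), HFD-fed wild type (red) and HFD-fed Acod1-/- (green) mice, with 95% intervals and filled points where the adjusted p was under 0.1. On ND all genes but *Ebf2* lie to the right of 0 with filled points; on HFD *Cidea* and *Prdm16* are filled in both genotypes.

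The wider pathway was read from lists, whose counts stand against the shares of all genes: 24.2% fell and 25.9% rose on HFD in iWAT, 26.9% fell and 24.8% rose in eWAT, and 9.13% were higher and 10.8% lower with *Acod1* loss in eWAT. Of 17 adrenergic and cyclic AMP genes, 9 fell and 2 rose on HFD in iWAT (median log2 fold change -0.46, against 0.004 over all genes). *Creb1*, the cyclic AMP responsive transcription factor, fell (log2 fold change -0.77, SE 0.12), as did the G protein regulator *Rgs2* (-2.61, SE 0.42) and the secretin receptor *Sctr* (-2.44, SE 0.49), while *Prkaca*, the catalytic subunit of protein kinase A, rose by 0.60 (SE 0.14) and *Gnas* by 0.37 (SE 0.14). In eWAT 5 fell and 2 rose (median -0.22, against -0.038), among them the β3-adrenergic receptor *Adrb3*, from 1098 ± 249 CPM (SD, n = 4) to 182 ± 99.2 CPM (n = 5) on HFD (log2 fold change -2.60, SE 0.51, adjusted p = 0.00179, edgeR). *Pde3b*, which degrades cyclic AMP, fell (-1.54, SE 0.18), as did *Sctr* (-2.398, SE 0.46), whereas *Adcy3*, an adenylyl cyclase, and *Prkaca* rose (0.99, SE 0.29, and 0.42, SE 0.18).

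With *Acod1* loss in eWAT, 4 of the 17 were higher and 2 lower (median 0.17, against 0.044). *Adrb3* was at 865 ± 408 CPM (n = 5) in the knockouts against 182 ± 99.2 CPM in wild type (log2 fold change 2.26, SE 0.49, adjusted p = 0.0144, edgeR), and *Pde3b* (0.94, SE 0.17) and *Sctr* (1.26, SE 0.43) were higher as well, while *Adcy3* (-1.18, SE 0.27) and *Rgs2* (-1.67, SE 0.48) were lower. In iWAT none of the 17 passed for genotype, with 4 at an unadjusted p under 0.05.

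Of 22 transcriptional activators, 7 fell and 1 rose on HFD in iWAT (median -0.15, against 0.004, with 24.2% and 25.9% of all genes), and 9 fell and 3 rose in eWAT (median -0.19, against -0.038, with 26.9% and 24.8%). *Irf4*, a factor that acts with the product of *Ppargc1a* in brown adipocytes, fell in both (log2 fold change -2.66, SE 0.25, in iWAT and -2.74, SE 0.59, in eWAT), and *Nrf1* and *Tfam*, which drive mitochondrial gene expression, fell in iWAT (-0.75, SE 0.17, and -0.46, SE 0.11). Lymph node and B cell markers also fell in iWAT, 6 of 6, while in eWAT none of 5 tested passed. Their part in the *Irf4* values was not tested. *Mecom*, the close relative of *Prdm16*, rose with it in iWAT (0.91, SE 0.20, adjusted p = 0.00391, edgeR). In eWAT the thyroid hormone receptor *Thra* (-1.14, SE 0.16) and *Zfp516* (-0.84, SE 0.18) fell, and *Cebpb* (1.005, SE 0.30), *Hlx* (0.98, SE 0.30) and *Esrra* (0.53, SE 0.22) rose. For genotype in eWAT 2 were higher, *Thrb* (0.59, SE 0.17) and *Thra* (0.49, SE 0.15), and *Hlx* was lower (-0.90, SE 0.28), and in iWAT none passed.

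Of 11 transcriptional repressors of the programme, 4 rose and 3 fell on HFD in iWAT, and 3 rose and 4 fell in eWAT, so that 7 of 11 passed in each depot, with 50.1% of all genes passing in iWAT and 51.8% in eWAT. *Zfp423*, which holds adipocytes in the white state, rose in iWAT (0.93, SE 0.17, adjusted p = 0.00157, edgeR), and *Twist1* and *Ctbp2* rose in both depots by 0.52 to 0.74 on the log2 scale, while *Notch1* and *Foxo1* fell in both. *Rbl1* rose in eWAT (0.34, SE 0.15) and fell in iWAT (-0.47, SE 0.18). *Nrip1*, a corepressor of *Ucp1*, fell in eWAT on HFD (-0.81, SE 0.15) and was higher with *Acod1* loss (0.76, SE 0.14), where *Rbl1* was lower (-0.44, SE 0.14). None passed for genotype in iWAT.

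A list of 26 other brown and beige adipocyte genes had 10 of 23 tested falling and 2 rising in iWAT on HFD (median -0.41, against 0.004, with 24.2% of all genes falling and 25.9% rising). *Gpd2*, the mitochondrial glycerol phosphate dehydrogenase, fell there (log2 fold change -2.49, SE 0.29), as did *Ntrk3* (-2.399, SE 0.29) and the beige marker *Tmem26* (-2.65, SE 0.40), while *Cpt1a*, which admits fatty acids to mitochondria, rose (1.62, SE 0.21), as did *Lhx8* (1.204, SE 0.31). In eWAT 6 of 19 tested rose and 5 fell (median 0.26, against -0.038, with 24.8% rising and 26.9% falling), with *Cpt1a* (0.96, SE 0.19), the potassium channel *Kcnk3* (1.47, SE 0.37) and *Acaa2* (0.52, SE 0.14) higher and *Gpd2* (-1.81, SE 0.22), *Mpzl2* (-3.79, SE 0.84) and *Ntrk3* (-1.03, SE 0.27) lower. *Tmem26* in iWAT averaged 3.179 CPM on ND and 0.4938 CPM on HFD, and *Mpzl2* in eWAT 10.53 and 0.7603 CPM. Both exceeded 1 CPM on average on ND but not on HFD. Passing the filter and differing were therefore not independent for *Tmem26* and *Mpzl2*, which are counted among the falling genes. The diet difference between depots passed for 10 of 23, each with the lower change in iWAT, as for 14.2% of all genes. With *Acod1* loss only *Gpd2* passed in eWAT (1.13, SE 0.21), and none in iWAT.

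Secreted factors of thermogenic fat split, with 3 of 10 tested rising and 1 falling in iWAT on HFD and 3 of 11 rising and 2 falling in eWAT (all genes: 25.9% and 24.2%, and 24.8% and 26.9%). *Metrnl* rose in both depots (2.55, SE 0.34, and 2.67, SE 0.36), as did *Angptl8* (1.35, SE 0.51, and 1.85, SE 0.64), *Vegfa* fell in both (-0.69, SE 0.16, and -1.55, SE 0.36), *Slit2* rose in iWAT (2.70, SE 0.94), and in eWAT *Fndc5* rose (1.31, SE 0.53) and *Bmp7* fell (-1.98, SE 0.54). With *Acod1* loss in eWAT *Nrg4* (0.93, SE 0.28) and *Vegfa* (0.93, SE 0.34) were higher and *Metrnl* (-1.69, SE 0.32) and *Fndc5* (-2.27, SE 0.51) lower, and none passed in iWAT. Of 14 counterparts of the members, 5 of 13 tested rose and 1, the elongase *Elovl6* (-2.72, SE 0.42), fell in iWAT on HFD (all genes: 25.9% and 24.2%). *Dio1*, the liver-type deiodinase, rose there from 0.0225 to 2.45 CPM and *Cideb* from 0.169 to 2.80 CPM. Both exceeded 1 CPM on average on HFD but not on ND, as did *Slit2* in iWAT (4.36 and 0.680 CPM). The reverse held for *Bmp7* in eWAT (0.750 and 2.9 CPM). For these genes passing the filter and differing were not independent. In eWAT 4 of 12 rose (24.8% of all genes), with *Elovl1* (0.73, SE 0.16) and *Cox7a2l* (0.54, SE 0.12) among them. There *Elovl6* (-0.93, SE 0.36) and *Ebf3* (-0.48, SE 0.19) fell. For genotype in eWAT *Ucp2* (-1.57, SE 0.29) and *Elovl1* (-0.44, SE 0.15) were lower, and none passed in iWAT.

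Of 9 white adipocyte genes, 4 of 7 tested in iWAT rose on HFD and none fell (all genes: 25.9% and 24.2%). *Mest*, a gene of fat expansion, went from 21.7 ± 23.8 CPM (n = 3) to 1534 ± 323 CPM (n = 5), *Lep*, which encodes leptin, from 401 ± 196 to 4851 ± 581 CPM, and *Hoxc9* rose by 0.69 (SE 0.21) on the log2 scale. In eWAT *Mest* (3.56, SE 0.59) and *Lep* (2.09, SE 0.54) also rose and *Agt* (-2.52, SE 0.35) and *Retn* (-1.21, SE 0.45), the resistin gene, fell. With *Acod1* loss *Agt* (1.61, SE 0.33), *Retn* (1.89, SE 0.44) and *Hoxc8* (0.87, SE 0.33) were higher in eWAT, 3 of 8 tested (9.13% of all genes), and none passed in iWAT. Nerve and Schwann cell markers split in eWAT (1 higher and 1 lower of 2 tested) and had 1 of 4 lower in iWAT on HFD.

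Some of these calls needed a library that stood apart. Without the muscle-rich ND-fed iWAT library, *Gnas* (0.35, adjusted p = 0.124), *Rbl1* (-0.40, 0.173) and *Angptl8* (1.12, 0.162) no longer passed for diet in iWAT, where 8 adrenergic genes, 6 activators, 2 repressors and 12 of the other brown and beige adipocyte genes then fell. Without ND-fed eWAT library 2, *Prkaca* (0.36, 0.177), *Cox7a2* (0.42, 0.194), *Rbl1* (0.35, 0.118) and *Fndc5* (1.23, 0.122) no longer passed for diet in eWAT. Without Acod1-/- eWAT library 2, *Vegfa* (0.95, 0.123), *Rbl1* (-0.38, 0.105) and *Hoxc8* (0.60, 0.224) no longer passed for genotype there. Leaving out Acod1-/- eWAT library 5 ended no call of a listed pathway gene in eWAT, and without Acod1-/- iWAT library 2 still none passed in iWAT. All adjusted p-values are from edgeR.

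Genes whose pattern resembled a member were found by Pearson's r of log2 CPM over the libraries of a depot, as a description in which the points share diet groups. In iWAT (11 libraries) *Cidea* was matched best by *Tkt* (0.975), *Tfam* (0.974), *Cox7a1* (0.971), *Gm43672* (0.969) and *Uqcrc2* (0.966), and *Cox8b* by *Pex6*, *Fam120aos*, *Tst*, *Csad* and *Mfsd4b1* (0.935 to 0.966). *Ucp1* in iWAT was matched best by *Polrmt*, *Tada3*, *Fastkd1*, *Rnf187* and *Trmt2b* (0.910 to 0.962). *Prdm16* had r of -0.927 to *Cox8b*, -0.822 to *Cidea* and -0.524 to *Ucp1* there.

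In eWAT (14 libraries) *Cox8b* was matched by *Ccdc124*, *Chrac1*, *Cox7a1*, *Map2k2* and *Angptl8* (0.942 to 0.949), *Cidea* by *Pycrl*, *Ubxn4*, *Tmem185a*, *Hsd17b12* and *Mrpl39* (0.732 to 0.792), and *Ucp1* by *Isg15*, *Cxxc5*, *Thop1*, *Ttll12* and *Nutf2* (0.749 to 0.786). The pair *Cox8b* and *Cox7a1* thus ran together in both depots (0.944 in eWAT and 0.872 in iWAT), whereas *Cidea* and *Cox8b* did so in iWAT (0.909) more than in eWAT (0.438), a difference that was not tested. The r values of *Ucp1* in eWAT rest on 0 to 78 reads per library, too few for the fit across genes. Among HFD-fed wild type libraries, library 4 was the highest of its 5 for *Cidea*, *Dio2*, *Elovl3*, *Cox7a1*, *Cox8b* and *Otop1* in eWAT and for the same 6 genes and *Ucp1* in iWAT.

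Part of the set shares ground with other annotated genes. *Prdm16*, *Ppargc1a*, *Dio2*, *Ebf2*, *Cidea* and *Elovl3* overlap other genes in GENCODE vM21 (*Elovl3* overlaps *Pitx3*), and whether strand was used in counting is not given in the sources used here. The paper names a directional library kit, and ambiguous reads (1.52% to 2.07% of a library) were set aside in the deposited counts. Reads of such pairs may therefore have been set aside, or not told apart, in these 6 genes.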

How the data were processed

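Poly(A) RNA-seq of 14 eWAT and 11 iWAT libraries was analysed. The authors aligned reads with STAR 2.4.2a and deposited raw counts per Ensembl gene (annotation GRCm38.95) beside FPKM, which were not used further. The counting program and its strand setting are not given in the sources used here. IDs were joined to GENCODE vM21 symbols (54723 matched, 29 did not), and 5 rows of uncounted reads were left out (reads without a feature were 6.41% to 11.9% of a library).

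Genes averaging 1 CPM or more over a depot's libraries (over either depot's for depot tests) were kept, and their counts were tested with edgeR 4.0.16 (quasi-likelihood test, TMM, Benjamini-Hochberg adjustment over all genes, called at an adjusted p under 0.1), in R 4.3.3. Intervals are 1.96 SE on either side, a normal approximation that is narrower than the quasi-likelihood test itself would give. Isoform shares and *Ucp1* in eWAT were tested by exact permutation of libraries. A count of 0 was taken to allow up to 3 counts, counting error only. Alternatives were DESeq2 1.42.0, other filters, a stricter threshold, the series of the header numbers, a replicate block, only the groups compared, and each library left out. The HFD libraries of the first series alone were added after the values had been seen. Scripts were tested on simulated data.

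The 10 genes, the lists and the tests were chosen with earlier results of these data known. Named were the 10 genes, their counterparts, up to 3 called genes of each list and direction by smallest adjusted p, and the 5 genes most like *Ucp1*, *Cidea* and *Cox8b*.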

Additional observations from a re-analysis of the deposited data

Results flagged for a closer look

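Among 40 sets of 4 or 5 libraries (1 gene in 1 group), 9 held a library whose gap to the nearest other was too large a part of the range by Dixon's test, where chance gives about 1 in 20. In eWAT, *Cidea* was at 12.7 CPM in ND-fed library 4 against 3.31 to 4.59 CPM in the others. *Cox7a1* at 28.1 CPM and *Cox8b* at 72.0 CPM were both in Acod1-/- library 2, against at most 9.96 and 15.7 CPM. *Otop1* at 19.9 CPM and *Ebf2* at 17.4 CPM were both in Acod1-/- library 5, where the other 4 had 1.03 to 5.02 CPM and 29.8 to 34.8 CPM. *Prdm16* stood out at 12.2 CPM in HFD-fed wild type library 2 (others 6.93 to 8.31 CPM) and at 4.47 CPM in Acod1-/- library 1 (others 6.11 to 6.29 CPM). In iWAT, HFD-fed wild type library 5 was the highest for *Ppargc1a* (7.35 CPM, others 4.24 to 4.61 CPM) and for *Ebf2* (18.9 CPM, others 16.4 to 17.0 CPM).

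The effect of HFD differed between the depots in the test of the difference itself for 7 genes. Each had a lower log2 fold change in iWAT than in eWAT: *Ucp1* (-11.01), *Otop1* (-4.71), *Elovl3* (-4.45), *Dio2* (-4.36), *Cox8b* (-3.88), *Cox7a1* (-3.37) and *Cidea* (-2.82). Of these, *Ucp1* was kept in the fit only through iWAT, so that passing the filter and differing were not independent for it.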

How the results depend on the processing

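Of 2393 values under an alternative, 2281 kept their direction and side of the threshold, 46 lost and 46 gained a call, and 20 changed sign, none of the 20 past the threshold. The cause of these shifts was not tested.

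Genes of the 10 called for genotype in eWAT numbered 2, and 0 at an adjusted p under 0.05, 5 by DESeq2's Wald test, 0 without a filter, 1 with only the groups compared, 4 in the first series alone and 0 to 4 with a library left out. For genotype in iWAT they numbered 0, and 1 with DESeq2 size factors, 5 by the Wald test, 2 without a filter, 2 of 7 tested with 1 CPM in every library, 6 in the first series alone and 0 to 4 with a library left out. With 1 CPM in every library, which left 6 genes, 4 passed for diet in eWAT, 5 for the depots on ND and 3 for the diet difference between depots. With only the groups compared, 4 passed between depots in HFD-fed wild type and 2 in Acod1-/- mice (2 to 5 with a library left out). The genotype difference between depots gave 0 to 1 with a library left out, *Otop1* passing without Acod1-/- eWAT library 5 (2.86, adjusted p = 0.0931), and the isoform shares 2 to 8.

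Over all genes, diet in eWAT called 5139 genes with the series as a term (7730 without), genotype in eWAT 1717 at 0.05 (2976 at 0.1; 1723 to 4237 with a library left out), and the depots in Acod1-/- mice 658, or 330 at 0.05, 1040 by the Wald test, 248 with 1 CPM in every library, 387 with the replicate block, 72 with only the groups compared and 181 to 1128 with a library left out. Genotype in iWAT called 0, or 5 with size factors, 1072 by the Wald test, 77 without a filter, 91 with 1 CPM in every library, 4 with the series as a term, 2096 in the first series and 0 to 2659 with a library left out. The genotype difference between depots called 1, or 115 by the Wald test, 472 with the replicate block and 1 to 393 with a library left out.

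The labels do not say whether a number marks the same mouse, and deviations of same-numbered libraries correlated at -0.165 to 0.468 (highest for HFD-fed wild type library 4 of eWAT and iWAT), so the numbers were not taken to pair the libraries. The replicate block gave 6 calls among the 10 genes for diet in eWAT, 1 for genotype in eWAT, 8 for diet in iWAT, 0 for genotype in iWAT, 9, 3 and 4 for the depots on ND, in HFD-fed wild type and in Acod1-/- mice, 6 for the diet difference and 0 for the genotype difference between depots. Sign changes under the block were *Cidea* for diet in eWAT (0.098), *Elovl3* for genotype in iWAT (-0.42) and *Ebf2* for the diet difference (-0.006).

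The other sign changes came with a library left out or the first series alone. For diet in eWAT they were *Cidea* without ND-fed library 4 (0.59) or HFD-fed library 1 (0.12) and *Prdm16* without ND-fed library 3 (-0.039) or HFD-fed library 2 (-0.04). For genotype in eWAT they were *Cidea* without wild type library 4 (0.047) and *Cox7a1* (-0.37) and *Cox8b* (-0.60) without Acod1-/- library 2. In iWAT they were *Elovl3* for diet without ND-fed library 3 (0.52), and for genotype *Elovl3* without Acod1-/- library 2 (-1.65) and *Otop1* without library 3 (-0.063) or in the first series (-0.16). Between depots they were *Cox7a1* in HFD-fed wild type without eWAT library 1 (-0.029) or iWAT library 4 (-0.007), and for the genotype difference *Prdm16* without HFD-fed wild type eWAT library 2 (-0.11), Acod1-/- eWAT library 1 (-0.008) or Acod1-/- iWAT library 3 (-0.039), and *Elovl3* without Acod1-/- iWAT library 2 (-0.66).

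Highest or lowest values in the other direction with a library left out were, for diet, -0.40 for *Cidea* and 0.28 for *Prdm16* in eWAT and -1.70 for *Elovl3* in iWAT; for genotype, -0.49 for *Cidea*, 0.34 for *Cox7a1* and 0.64 for *Cox8b* in eWAT and 0.73 for *Elovl3* and 0.39 for *Otop1* in iWAT; 0.18 for *Cox7a1* between depots in HFD-fed wild type mice; and, for the genotype difference, 1.97 for *Elovl3* and 0.17 for *Prdm16*.

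Depth limits *Ucp1* in eWAT, where 14 to 146 reads were counted over a group.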
